A study of Mus musculus with 17 samples.

Results

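The transcripts of the mitochondrial genome were followed through 17 libraries of mouse bone marrow progenitors. The members were the gene rows whose symbol starts with mt-: 2 ribosomal RNA (rRNA) genes, 13 protein-coding genes and 22 transfer RNA (tRNA) genes, 37 of 47643 gene rows in all. Per the labels, cells positive for cKit and negative for lymphoid and erythroid surface markers were sorted from total bone marrow, and polyadenylated RNA was sequenced by a low-input method. Kit, the gene for the sorting receptor, was at 99.97 to 187 CPM (read counts scaled to library size) in all 17 libraries. Other progenitor markers varied more. Cd34 was at 0.0650 to 145 CPM, Flt3 at 8.95 to 76.2 CPM and Gata2 at 0 to 11.8 CPM, while Mpo was at 2236 to 7738 CPM. Gene counts came to 21.1 to 38.3 M per library.

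The alleles studied were a deleted upstream regulatory element (URE) of Spi1, present on 1 chromosome (het), and a Tet2 null allele, present on 1 chromosome (het) or on both (KO). Spi1 encodes PU.1, a transcription factor of blood cell development, and Tet2 encodes an enzyme that oxidises methylated cytosine in DNA. The compound mutants were UREΔ/+;Tet2-/- (URE het Tet2 KO, 3 libraries) and UREΔ/+;Tet2+/- (URE het Tet2 het, 2 libraries), both labelled AML for acute myeloid leukaemia. The mice labelled Normal were UREΔ/+;Tet2+/+ (URE het, 3 libraries), URE+/+;Tet2+/- (Tet2 het, 3 libraries), URE+/+;Tet2-/- (Tet2 KO, 3 libraries) and URE+/+;Tet2+/+ (WT, 3 libraries). Every AML library came from a compound mutant and every compound mutant was labelled AML, so the disease label and the compound genotypes cannot be told apart. Ages, and the tissue in which an allele was deleted, were not given. The libraries also bear title numbers; 7 are numbered 1 to 7 and 10 are numbered 8 to 17, and each range holds all 6 genotypes. The labels do not say what the numbers stand for. Spi1 averaged 39.6 ± 51.2 CPM in URE het Tet2 KO libraries, 28.3 ± 9.38 CPM in URE het Tet2 het libraries, 63.4 ± 24.2 CPM in URE het libraries and 94.6 ± 34.5 CPM in WT libraries (SD, n = 3, 2, 3 and 3). Tet2 averaged 133 ± 36.8 CPM in URE het Tet2 KO libraries, 195 ± 55.1 CPM in URE het Tet2 het libraries, 82.5 ± 3.30 CPM in Tet2 KO libraries and 119 ± 12.6 CPM in WT libraries (SD, n = 3, 2, 3 and 3). It was thus below WT in Tet2 KO but not in URE het Tet2 KO, which bears the same Tet2 genotype. Counts over the whole gene do not show whether the deleted part was read, so they do not check these labels.

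The mitochondrial genome is a small circle transcribed from both strands as long precursors. The transcript of 1 strand (the plus strand of the reference) carries both rRNAs, 12 of the mRNAs and 14 tRNAs, and that of the other strand carries mt-Nd6 and 8 tRNAs. The tRNAs lie between the longer genes, and cutting them out frees the rRNAs and mRNAs, which are then given short poly(A) tails; in human cells the mRNA of ND6 lacks such a tail. The proteins are core subunits of respiratory complexes I (Nd genes), III (Cytb) and IV (Co genes) and of the ATP synthase (Atp genes), while their partners, the RNA polymerase and the ribosomal proteins are made from nuclear genes.

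The sequences below are shown because the results turn on how a read is assigned between these neighbours and their copies. They are 5 tRNA genes of the minus strand that the results name, the overlap of mt-Atp8 and mt-Atp6, and the start of mt-Nd3 with its copy in the nuclear genome. All are from GRCm38, written 5′ to 3′ on the strand of the gene. In mt-Ts1 (a serine tRNA, chrM:6870-6938, minus strand) the capitals mark the 3 bases that overlap the end of mt-Co1 on the opposite strand, and no base is marked in mt-Ta (alanine, chrM:5018-5086), mt-Tn (asparagine, chrM:5089-5159), mt-Te (glutamate, chrM:14071-14139) and mt-Tp (proline, chrM:15356-15422).
mt-Ts1: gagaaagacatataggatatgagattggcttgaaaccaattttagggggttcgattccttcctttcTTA
mt-Ta: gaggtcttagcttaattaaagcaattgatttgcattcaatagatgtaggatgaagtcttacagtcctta
mt-Tn: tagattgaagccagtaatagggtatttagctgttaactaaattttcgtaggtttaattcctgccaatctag
mt-Te: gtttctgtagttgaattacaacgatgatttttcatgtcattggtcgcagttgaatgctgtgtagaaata
mt-Tp: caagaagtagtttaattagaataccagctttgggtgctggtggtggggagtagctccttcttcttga

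The 43 bases shared by mt-Atp8 and mt-Atp6 (chrM:7927-7969, plus strand) run from the start codon of mt-Atp6 to the stop codon of mt-Atp8, both in capitals. Further overlaps were 14 bases between mt-Nd5 and mt-Nd6 on opposite strands and 7 bases between mt-Nd4l and mt-Nd4.
mt-Atp8 and mt-Atp6 overlap: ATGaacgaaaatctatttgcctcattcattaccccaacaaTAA

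The first 33 bases of mt-Nd3 (chrM:9459-9491, plus strand) and of its nuclear copy Gm28438 (chr1:24613087-24613119, minus strand) differ by the substitution T3C, counted from 1 at the 5′ end of each gene with the base of mt-Nd3 first; that base is in capitals. It was the only difference over the 345 bases compared.
mt-Nd3 window: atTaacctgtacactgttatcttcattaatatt
Gm28438 window: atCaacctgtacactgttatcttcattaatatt

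Gm28438 is 1 of 7 genes annotated in a 4663-base stretch of chromosome 1 (chr1:24611535-24616197, minus strand) that copies the mitochondrial genome from mt-Co1 to mt-Nd4. The copies of mt-Co2, mt-Co3, mt-Atp6 and mt-Nd4l had 0 differing bases. For some copies the counts stayed close to those of the mitochondrial gene in every library. Gm28437 held 98.4 to 101% of the count of mt-Co3 and Gm28661 97.3 to 99.8% of mt-Co2. Gm10222 held 93.9 to 99.1% of mt-Nd4l and Gm28438 84.3 to 92.2% of mt-Nd3. Gm10925 held 133 to 160% of the count of mt-Atp6, Gm28439 45.8 to 61.3% of mt-Nd4 and Gm29216 22.9 to 28.1% of mt-Co1. In all, 11 nuclear genes had at least 95% identity over at least 100 bases. The 9 of them on a list of nuclear copies held counts equal to 43.5 to 54.8% of the mitochondrial mRNA counts and 0.861 to 1.77% of gene counts. How reads with several equal matches were counted is not given in the sources used here. Where these 7 mitochondrial genes match their copies base for base, reads of the 2 thus cannot be told apart. Gm29216 aligns over 483 of the 1545 bases of mt-Co1 and Gm28439 over 876 of the 1378 bases of mt-Nd4. The levels of the 7 genes are therefore uncertain as levels. The stretch also spans the places of mt-Atp8 and of tRNA genes such as mt-Ts1, mt-Td, mt-Tk and mt-Tg. None of these is among the 7 annotated copies, and their sequences were not compared with the stretch. The same uncertainty holds for their levels.

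Mitochondrial genes took 26.4 to 44.5% of gene counts, and most of that was rRNA. The 2 rRNAs, mt-Rnr1 (12S) and mt-Rnr2 (16S), made up 91.5 to 93.8% of the mitochondrial counts in each library, and the 22 tRNA genes together 0.00706 to 0.0302%. Per kilobase of gene, mean levels over all 17 libraries were 155520 CPM for mt-Rnr2 and 74659 CPM for mt-Rnr1. Among the mRNAs they ran, on the same scale, from 8674 CPM for mt-Atp8, 4540 CPM for mt-Atp6 and 3992 CPM for mt-Co1 down to 595 CPM for mt-Nd2 and 536 CPM for mt-Nd6. The tRNA genes ranged from 352 CPM per kilobase for mt-Ts1 to 1.98 for mt-Ts2, which had 0 to 14 counts in a library. With so few counts mt-Ts2 failed the filter on low counts, and 36 of the 37 genes were tested.

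The mitochondrial share separated the libraries by title number. It was 32.1 to 44.5% of gene counts (median 36.4%, mean 37.4 ± 3.67%, SD, n = 10) in libraries numbered 8 to 17, against 26.4 to 30.8% (median 27.8%, mean 28.5 ± 1.86%, SD, n = 7) in libraries numbered 1 to 7. The 2 ranges did not overlap. The share of the 13 protein-coding genes alone was 2.21 to 3.38% (mean 2.64 ± 0.37%) in libraries 8 to 17 and 1.78 to 2.16% (mean 1.98 ± 0.13%) in libraries 1 to 7, again without overlap. The tRNA genes together took 0.0167 to 0.0302% of mitochondrial counts in libraries 8 to 17, against 0.00706 to 0.0133% in libraries 1 to 7.

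**Figure D1:**
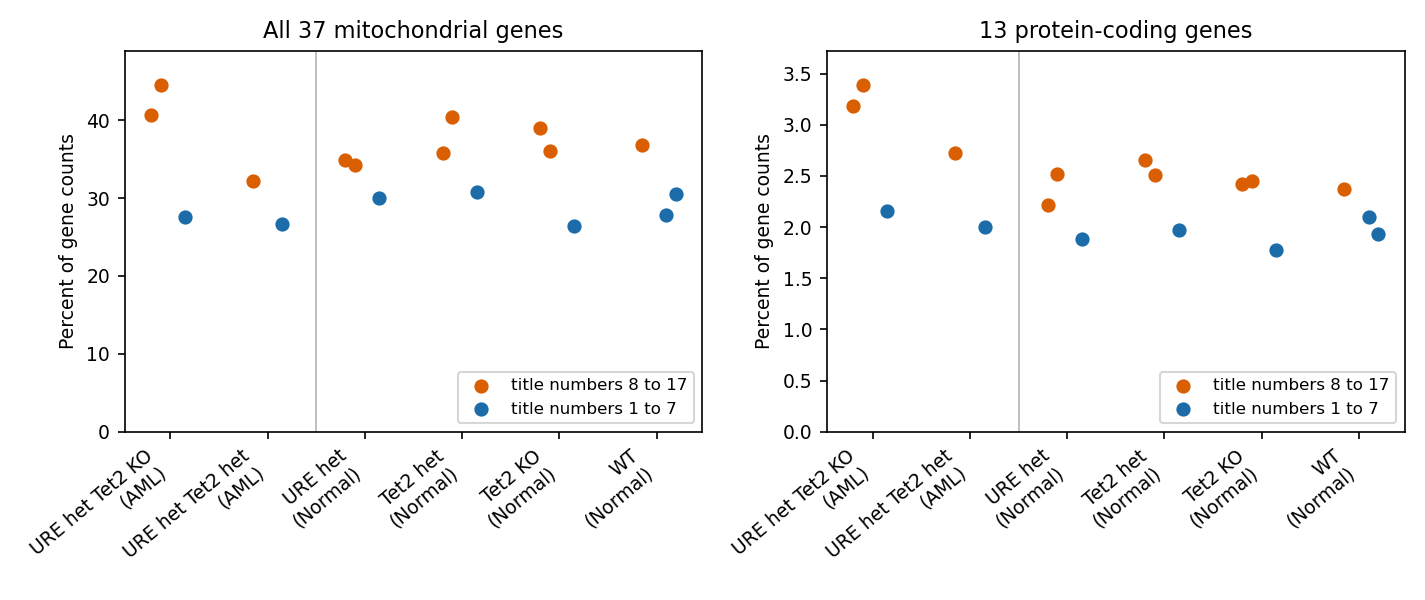
Percent of gene counts (y axis, from 0) in all 37 mitochondrial genes (left) and in the 13 protein-coding genes (right), 1 point per library, by genotype and coloured by title number. In every genotype the points of libraries 8 to 17 lie above those of libraries 1 to 7.

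Between disease labels the shares overlapped. The AML libraries held 26.7 to 44.5% (median 32.1%, mean 34.3 ± 7.94%, SD, n = 5) and the Normal libraries 26.4 to 40.4% (median 34.6%, mean 33.6 ± 4.40%, SD, n = 12). Within libraries 8 to 17 the AML values were 32.1, 40.7 and 44.5%, against 34.2 to 40.4% (median 36.0%) in the 7 Normal libraries, so AML held both the lowest and the highest 2. Within libraries 1 to 7 the 2 AML values were 26.7 and 27.6%, against 26.4 to 30.8% (median 30.1%) in the 5 Normal libraries. By genotype the means were 37.6 ± 8.86% in URE het Tet2 KO, 29.4 ± 3.86% in URE het Tet2 het (n = 2), 33.1 ± 2.63% in URE het, 35.6 ± 4.81% in Tet2 het, 33.8 ± 6.58% in Tet2 KO and 31.7 ± 4.60% in WT (SD, n = 3 each otherwise); ordered by mean, no genotype differed from the next by more than the SD of either. No test was made on shares, which are sums over the members. In these bulk samples fewer cells of a type and less RNA per cell cannot be told apart.

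Gene by gene, levels were compared between libraries 8 to 17 and 1 to 7 with genotype in the fit (edgeR quasi-likelihood F test, Benjamini-Hochberg adjustment over 19951 genes at 0.05; each log2 fold change carries its approximate standard error, SE). Of the 36 tested members 29 were higher in libraries 8 to 17 and 0 lower. Over all tested genes 26.9% were called, 12.9% higher and 14% lower. The median log2 fold change was 1.23 over the members and 0.07 over all genes. By class, 21 of 21 tested tRNA genes, 7 of 13 mRNAs and 1 of 2 rRNAs were higher. Of the tRNA genes, mt-Td passed in 2 of the 17 fits that left out 1 library (highest adjusted p = 0.127), mt-Tm in 5 (0.108) and mt-Th in 12 (0.065), while the 18 others passed in all 17. For 15 of the 36 the 2 ranges of CPM did not overlap, all of them higher in libraries 8 to 17, against 2.2% of all tested genes that were higher without overlap and 2.93% that were lower. Nothing in the labels says that libraries came from separate mice, so the p-values measure the spread between these libraries.

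**Figure D2:**
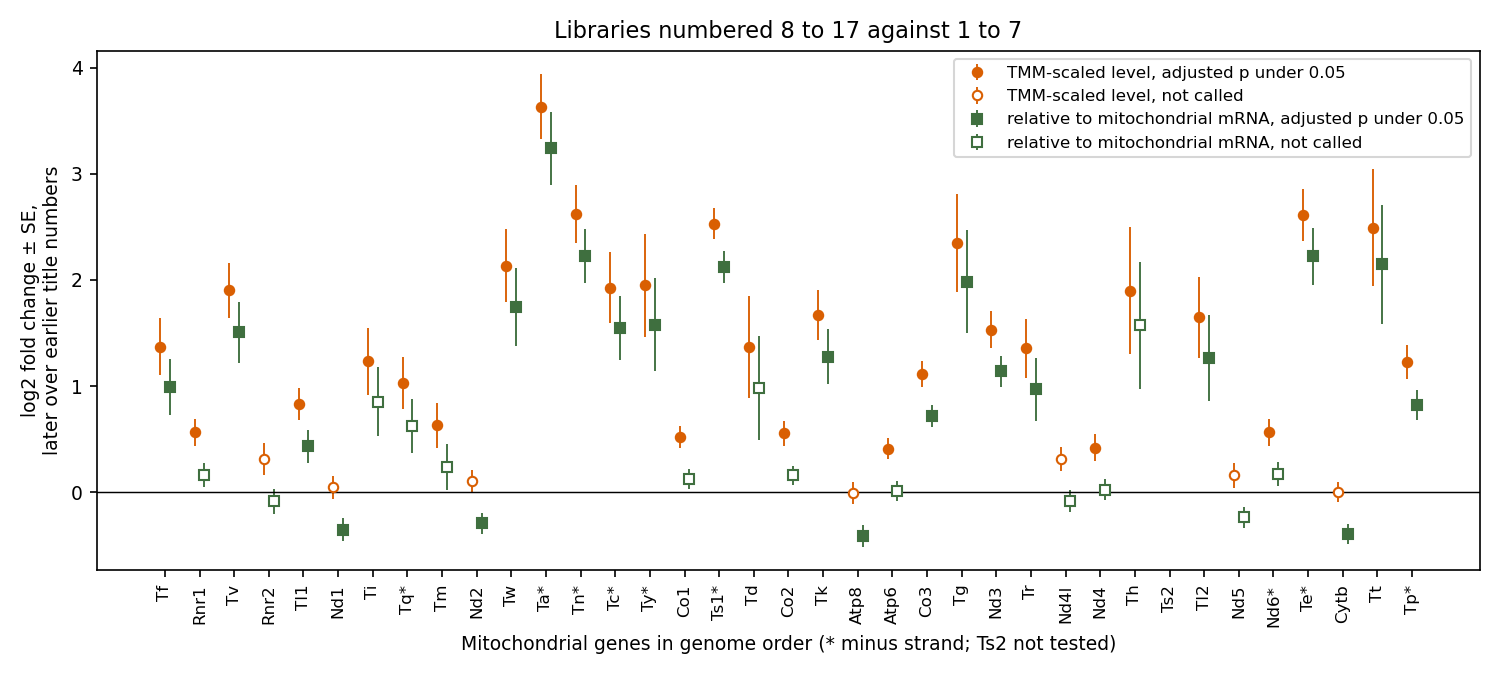
Log2 fold change ± SE (y axis) of 36 mitochondrial genes in libraries 8 to 17 over libraries 1 to 7, in genome order from left to right, as TMM-scaled level (circles) and relative to mitochondrial mRNA (squares); filled symbols passed an adjusted p of 0.05. The tRNA genes reach 3.63, mt-Co3, mt-Tg and mt-Nd3 stand together above the other long genes, and mt-Cytb lies at 0.00 as a level and -0.40 relative to mitochondrial mRNA.

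Counts over the tRNA genes, whose tRNAs carry amino acids to the mitochondrial ribosome, differed most. Polyadenylated RNA was sequenced, and reads of cut tRNA and of uncut precursors cannot be told apart. These counts are thus not levels of finished tRNA. mt-Ts1 was at 22.9 to 62.6 CPM (median 36.1) in libraries 8 to 17 and at 3.40 to 9.64 CPM (median 5.59) in libraries 1 to 7. The lowest library of the first set lay above the highest of the second, at a log2 fold change of 2.53 ± 0.15 (adjusted p = 1.61e-06). mt-Ta was at 0.732 to 2.39 CPM (median 1.06) in libraries 8 to 17 and at 0.0382 to 0.254 CPM (median 0.0733) in libraries 1 to 7, without overlap. Its log2 fold change was 3.63 ± 0.31 (adjusted p = 5.69e-06), on 1 to 79 counts per library. mt-Tn, at 2.10 to 11.9 CPM in libraries 8 to 17 and 0.256 to 1.06 CPM in libraries 1 to 7, was higher by 2.62 ± 0.27 (adjusted p = 1.87e-05). These 3 genes lie on the minus strand, as do mt-Te (2.61 ± 0.25) and mt-Tp (1.23 ± 0.16), whose CPM did not overlap either.

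Set by strand, the 8 minus-strand tRNA genes had a median log2 fold change of 2.24 (1.03 to 3.63) and the 13 tested plus-strand tRNA genes one of 1.65 (0.63 to 2.49). The smallest changes among tRNA genes were those of mt-Tm (methionine, 0.63 ± 0.21) and mt-Tl1 (a leucine tRNA, 0.83 ± 0.15), both on the plus strand. Counts were low throughout the class: 11 of the 22 tRNA genes averaged under 1 CPM, with 0 to 84 counts in a library. The strand setting of the counting is not given, so reads of a tRNA gene and of precursor RNA of the opposite strand cannot be told apart; mt-Ta, mt-Tn, mt-Tc and mt-Ty all lie between mt-Tw and mt-Co1, genes of the plus strand.

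Among the mRNAs the 2 largest changes were in neighbours, both with a copy in the stretch of chromosome 1. mt-Nd3 (ENSMUSG00000064360.1, chrM:9459-9806), a subunit gene of complex I, was at 189 to 858 CPM (median 555) in libraries 8 to 17 and at 143 to 241 CPM (median 172) in libraries 1 to 7. The ranges overlapped by 1 library, URE het Tet2 het replicate 2 at 189 CPM; the other 9 libraries 8 to 17 were at 514 to 858 CPM. The log2 fold change was 1.53 ± 0.18 (adjusted p = 3.82e-05). mt-Co3 (ENSMUSG00000064358.1, chrM:8607-9390), a subunit gene of complex IV, was at 1427 to 3554 CPM (median 2218) in libraries 8 to 17 and at 807 to 1282 CPM (median 979) in libraries 1 to 7. Its ranges did not overlap, and its log2 fold change was 1.11 ± 0.12 (adjusted p = 3.09e-05). mt-Tg, the glycine tRNA gene between them, was higher by 2.35 ± 0.46 (adjusted p = 0.00193) on 0 to 19 counts per library.

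The other 5 called mRNAs changed less. mt-Co2, of complex IV, was at 2141 to 3371 CPM in libraries 8 to 17 and 1412 to 1951 CPM in libraries 1 to 7, without overlap (0.56 ± 0.12, adjusted p = 0.00294). mt-Nd6, the only mRNA of the minus strand, was higher by 0.56 ± 0.13, mt-Co1 by 0.52 ± 0.11, mt-Nd4 by 0.42 ± 0.13 and mt-Atp6 by 0.41 ± 0.10 on the log2 scale. The call of mt-Nd4 was the weakest of these, at an adjusted p of 0.0264, and it held in 13 of the 17 fits that left out 1 library (highest adjusted p = 0.082). mt-Rnr1, the 12S rRNA, was at 63826 to 97251 CPM in libraries 8 to 17 and 40148 to 62969 CPM in libraries 1 to 7, without overlap (0.56 ± 0.13, adjusted p = 0.00434). mt-Rnr2, the 16S rRNA, did not pass (0.31 ± 0.15, adjusted p = 0.139).

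6 mRNAs did not pass. Of these only mt-Nd4l has an annotated copy in the chromosome 1 stretch. Among the called mRNAs mt-Co1, mt-Co2, mt-Co3, mt-Atp6, mt-Nd3 and mt-Nd4 have one and mt-Nd6 has none. The part of read assignment in this was not tested. mt-Cytb, the mitochondrial subunit of complex III, was at 1463 to 2021 CPM (median 1632) in libraries 8 to 17 and at 1483 to 1932 CPM (median 1601) in libraries 1 to 7. Its ranges all but coincide, and its log2 fold change was 0.00 ± 0.09 (adjusted p = 0.984). mt-Atp8 had a log2 fold change of -0.01 ± 0.10, mt-Nd1 of 0.04 ± 0.11, mt-Nd2 of 0.10 ± 0.10, mt-Nd5 of 0.16 ± 0.12 and mt-Nd4l of 0.31 ± 0.12 (adjusted p = 0.0607). mt-Atp8 and mt-Atp6, which share 43 bases and lie on 1 mRNA, thus had log2 fold changes of -0.01 and 0.41; the difference between the 2 genes was not tested.

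**Figure D3:**
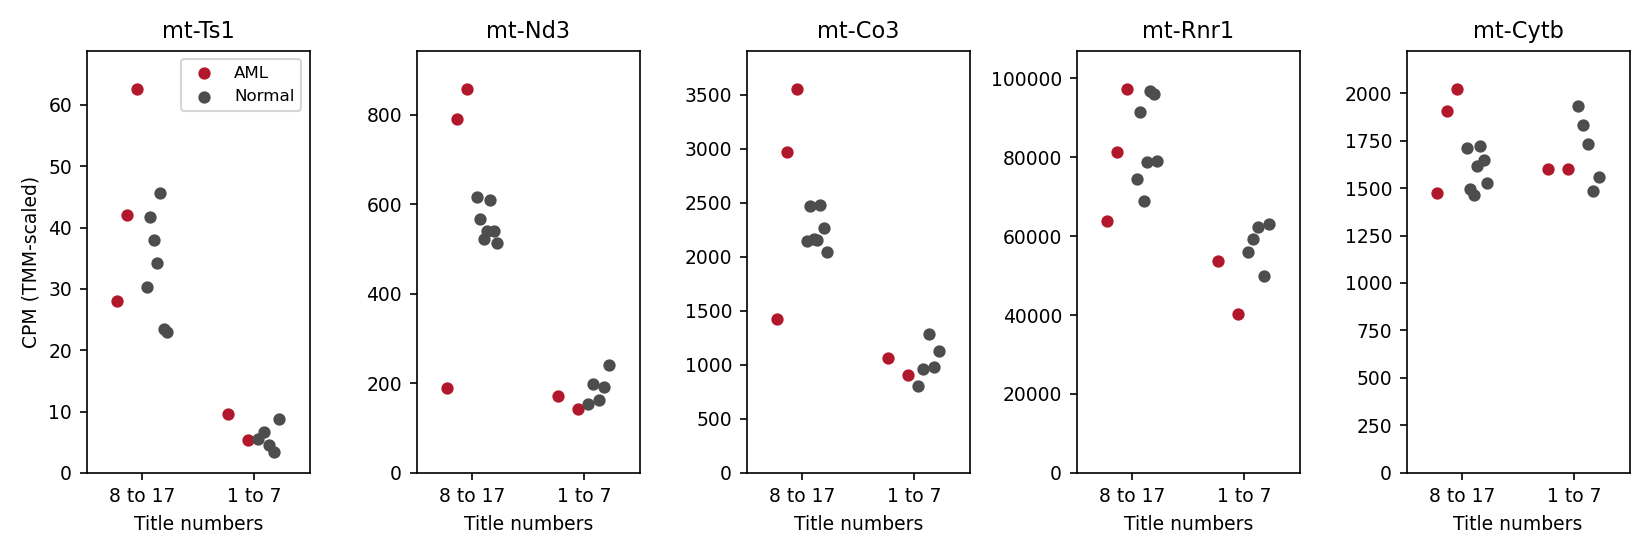
TMM-scaled CPM (y axes, each from 0) of 5 mitochondrial genes in libraries 8 to 17 (left) and 1 to 7 (right), 1 point per library, AML in red and Normal in grey. mt-Ts1, mt-Co3 and mt-Rnr1 do not overlap between the ranges, 1 AML library at 189 CPM sets mt-Nd3 apart from the other libraries 8 to 17, and mt-Cytb overlaps throughout.

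The composition of the mitochondrial mRNA differed too. Within a library, the count of mt-Nd3 over that of mt-Cytb was 0.128 to 0.424 in libraries 8 to 17 and 0.0793 to 0.155 in libraries 1 to 7. The count of mt-Co3 over that of mt-Cytb was 0.968 to 1.76 in libraries 8 to 17 (mean 1.42 ± 0.22, SD, n = 10) and 0.417 to 0.740 in libraries 1 to 7 (mean 0.614 ± 0.117, SD, n = 7), so it did not overlap. mt-Cytb made up 5.26 to 7.34% of the mitochondrial mRNA counts in libraries 8 to 17, against 7.47 to 9.96% in libraries 1 to 7.

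These proportions were tested by scaling each library to the sum of its 13 mitochondrial protein-coding genes. Relative to that sum 22 of 36 members differed, 18 higher and 4 lower in libraries 8 to 17, where 34.8% of all genes were called, 3.91% higher and 30.9% lower. The higher ones were 16 tRNA genes, mt-Nd3 (1.14 ± 0.15, adjusted p = 3.55e-05) and mt-Co3 (0.72 ± 0.10, adjusted p = 9.38e-05). The lower ones were mt-Atp8 (-0.41 ± 0.10), mt-Cytb (-0.40 ± 0.09), mt-Nd1 (-0.35 ± 0.11) and mt-Nd2 (-0.29 ± 0.10). None of these 4 has an annotated copy in the chromosome 1 stretch, though the stretch spans the place of mt-Atp8. With 1 library left out at a time 19 to 23 members passed; mt-Nd2 did in 10 of 17 fits (highest adjusted p = 0.143), mt-Nd1 in 15 (0.0808) and the tRNA gene mt-Tl1 in 5 (0.101). Neither rRNA passed on this scale, and the median of all genes was -0.33, since nuclear genes are set against a sum that was itself higher.

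The same direction was seen within each disease label. In the 12 Normal libraries alone 25 of 35 tested members passed, where 36.4% of all genes were called, and mt-Nd3 was higher by 1.57 ± 0.11 and mt-Co3 by 1.08 ± 0.11. In the 5 AML libraries alone, a fit with 3 libraries against 2, 0 of 35 members passed in edgeR and 0.0% of all genes did; 13 of the 35 had an unadjusted p under 0.05, and 34 had a positive log2 fold change with a median of 1.19. There mt-Nd3 was at 1.42 ± 0.59 and mt-Co3 at 1.19 ± 0.41 on the log2 scale. How many of all genes had such an unadjusted p in that fit is not given here, so the 13 have no background beside them. Whether the contrast of AML with Normal differs between the ranges was tested as an interaction. In edgeR 0 of 36 members passed and 0.175% of all genes were called. An unadjusted p under 0.05 was held by 2 members, beside 2544 of 19951 genes. DESeq2 called 1 member, mt-Nd1 (3.47% of all genes), and limma voom 0.

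Other measures were also compared by title number. Gene counts were 29.3 to 38.3 M in libraries 8 to 17 and 21.1 to 33.6 M in libraries 1 to 7. Nuclear protein-coding genes took 90.7 ± 1.24% of nuclear gene counts in libraries 8 to 17 and 92.6 ± 0.63% in libraries 1 to 7. Those nuclear counts include the listed copies of mitochondrial genes, so this share was not free of them. The copies took 1.21 to 1.77% of gene counts in libraries 8 to 17 and 0.861 to 1.04% in libraries 1 to 7. The marker counts that follow stand beside 12.9% of all genes higher and 14% lower in libraries 8 to 17. Of the markers of late neutrophils, 6 of 10 were lower in libraries 8 to 17 and 0 higher; their summed level was 11741 to 93693 CPM there and 27717 to 60618 CPM in libraries 1 to 7, and Ltf, Camp and Ngp were above 0 in all 17 libraries. Of the monocyte and dendritic markers 1 of 8 was lower and 0 higher, with a summed level of 209 to 814 CPM (median 492) in libraries 8 to 17 and 366 to 2063 CPM (median 1380) in libraries 1 to 7. Among Normal libraries alone that level was 475 to 814 CPM in libraries 8 to 17 and 1292 to 2063 CPM in libraries 1 to 7, without overlap. Of the erythroid markers 3 of 14 were lower and 0 higher, with a summed level of 67.0 to 284 CPM in libraries 8 to 17 and 65.1 to 224 CPM in libraries 1 to 7. Of the progenitor markers 1 of 13 was lower and 0 higher. The counts of 1 of 8 and 1 of 13 do not exceed the share of all genes that were lower. The part of these measures in the mitochondrial differences was not tested. Leaving out 1 library at a time gave 25 to 29 called members.

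AML was set against Normal as the mean of the 2 compound genotypes against the mean of the 4 others. In edgeR 0 of 36 members passed (lowest adjusted p = 0.163) where 11% of all genes did. An unadjusted p under 0.05 was held by 1 member, mt-Tm, beside 5252 of 19951 genes. DESeq2 and limma voom called 0 members. The median log2 fold change was 0.22 over the members and 0.05 over all genes. mt-Rnr1 was at 40148, 53719, 63826, 81425 and 97251 CPM in AML libraries and at 50001 to 96729 CPM (median 71644) in Normal libraries. mt-Co1 was at 5031, 5811, 6169, 9919 and 11169 CPM in AML libraries and at 3857 to 7193 CPM (median 5993) in Normal libraries. Both overlapped between the labels, with log2 fold changes of -0.20 ± 0.22 and 0.34 ± 0.19. Relative to mitochondrial mRNA 0 of 36 passed in edgeR, with 0 under an unadjusted p of 0.05, where 6.74% of all genes did; within libraries 8 to 17 alone (21.7% of all genes) mt-Nd3 passed, and with title range in the fit (15.2% of all genes) mt-Tp did. Ranges of CPM did not overlap between the labels for 0 of 36 members, while 0.827% of all genes were higher and 0.692% lower without overlap.

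The balance of rRNA and mRNA counts set most AML libraries apart. Polyadenylated RNA was sequenced, so this is a balance of captured counts and not of all such RNA in the cells. The 2 rRNAs held 10.8, 11.8, 11.8, 12.1 and 12.3 times the counts of the 13 mRNAs in AML libraries (mean 11.8 ± 0.58, SD, n = 5), against 12.2 to 15.1 times (median 14.5, mean 14.1 ± 1.08, SD, n = 12) in Normal libraries. A single pair overlapped: URE het Tet2 het replicate 1 at 12.31 and WT replicate 1 at 12.23. Within libraries 8 to 17 the ratio was 10.8 to 12.1 in the 3 AML libraries and 12.5 to 15.1 in the 7 Normal ones, without overlap. As a sum over members it was not tested, and taken singly neither rRNA passed between the labels relative to mitochondrial mRNA. The mRNA counts leave out those of the listed nuclear copies, equal to 43.5 to 54.8% of them. How far the labels overlap thus depends on how those reads were assigned. The ratio of mt-Rnr2 to mt-Rnr1 ran from 2.69 in URE het Tet2 het replicate 2 to 4.92 in URE het Tet2 het replicate 1, so the 2 libraries of that genotype held both ends of it.

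**Figure D4:**
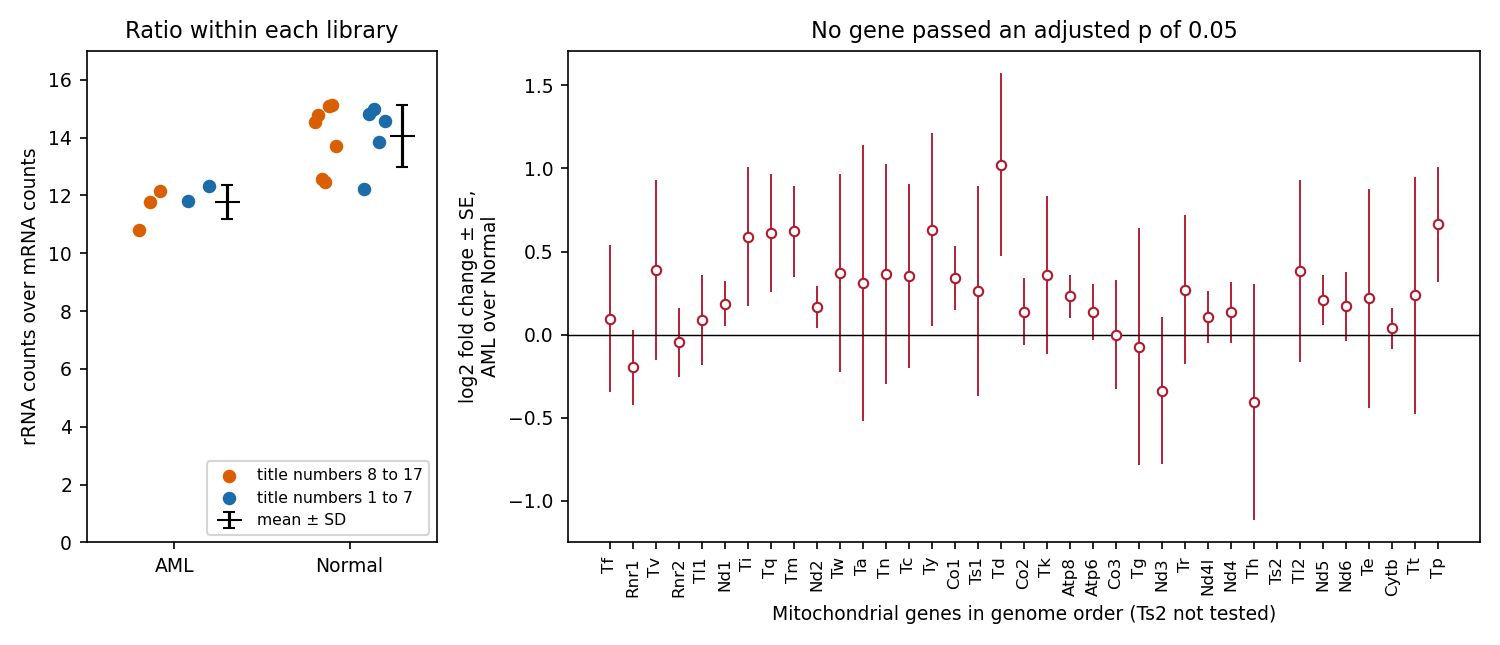
Left, counts of the 2 rRNA genes over counts of the 13 mRNA genes (y axis, from 0), 1 point per library with the mean ± SD of each label, coloured by title number; AML libraries lie at 10.8 to 12.3 and Normal libraries at 12.2 to 15.1. Right, log2 fold change ± SE of AML over Normal for 36 mitochondrial genes in genome order; none passed an adjusted p of 0.05.

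With the title range as a term beside genotype, 2 members were higher in AML where 18.4% of all genes were called: mt-Tp by 0.70 ± 0.16 (adjusted p = 0.00891) and mt-Co1 by 0.34 ± 0.11 (adjusted p = 0.0425). Within libraries 8 to 17 alone, where URE het Tet2 het and WT have 1 library each, 3 members passed and 20.9% of all genes did. mt-Nd1 was at 1613, 2217 and 2386 CPM in the AML libraries and at 1355 to 1531 CPM (median 1494) in the Normal ones, without overlap (0.39 ± 0.11, adjusted p = 0.0334); it was 1 of 3 members higher without overlap there, with mt-Ti and mt-Td, beside 7.2% of all genes. mt-Tp was higher by 0.58 ± 0.18 (adjusted p = 0.0457) and mt-Nd3 lower, at -0.52 ± 0.12 (adjusted p = 0.0168). The mean of mt-Nd3 rests on its 2 genotypes differing: it was at 791 and 858 CPM in URE het Tet2 KO, at 189 CPM in URE het Tet2 het and at 514 to 617 CPM in the Normal libraries.

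The 2 URE het Tet2 KO libraries numbered above 7 were the highest for most members, in a comparison that was not planned. Of the 36 tested members 27 were higher in both of them than in all 8 other libraries 8 to 17, among them all 13 mRNAs, mt-Rnr2 and 13 tRNA genes, and 0 were lower, while 15.8% of all tested genes were higher and 16.4% lower without overlap. mt-Nd1 stood at 2217 and 2386 CPM there and at 1355 to 1613 CPM in the 8 others. mt-Co1 stood at 9919 and 11169 CPM there and at 5811 to 7193 CPM in the others. mt-Tn stood at 10.5 and 11.9 CPM there and at 2.10 to 5.30 CPM in the others. URE het Tet2 KO replicate 1, in the range 1 to 7, had 1591 CPM of mt-Nd1, 6169 CPM of mt-Co1 and 1.06 CPM of mt-Tn. Of the 7 libraries in its range it was the highest for mt-Co1 and mt-Tn, and for mt-Nd1 it lay below both WT libraries. It was the lowest of the 7 for mt-Nd4, at 1458 CPM, and for mt-Nd6, at 184 CPM.

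**Figure D5:**
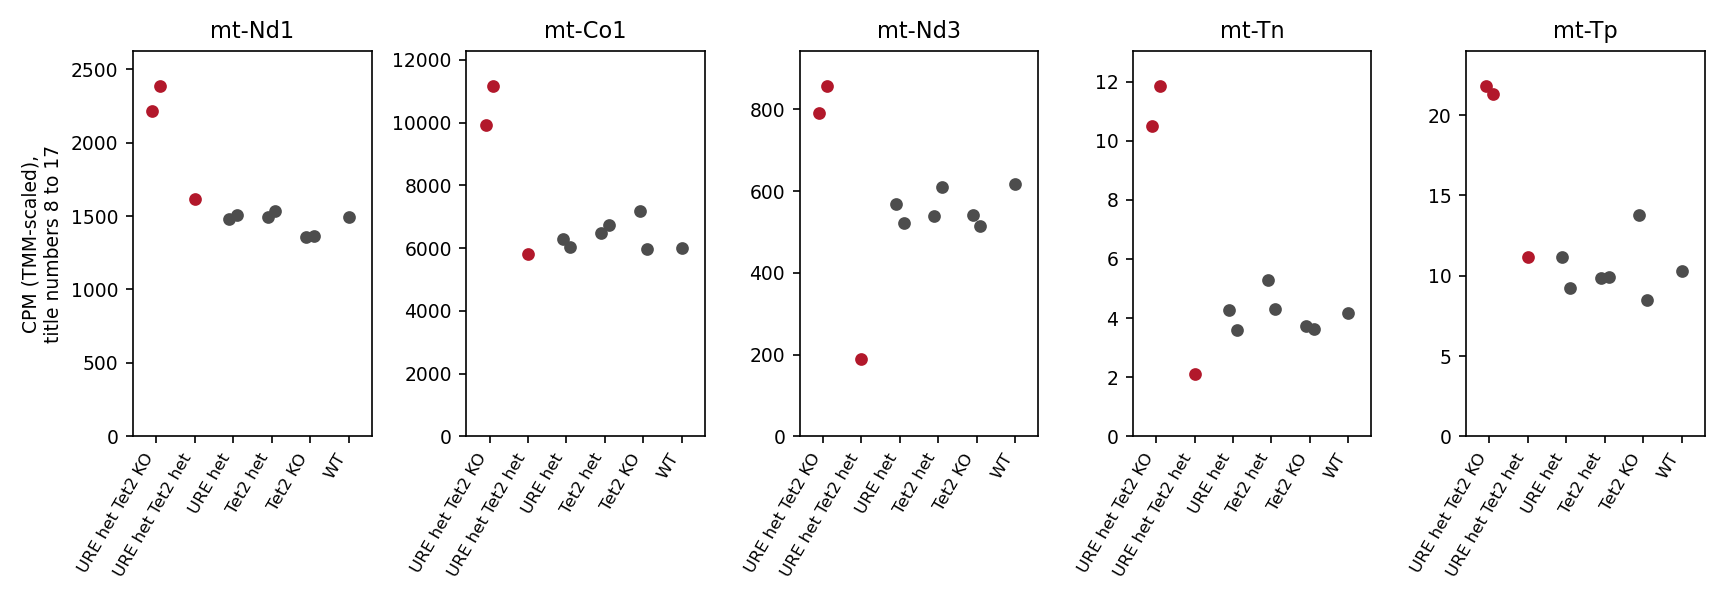
TMM-scaled CPM (y axes, each from 0) of 5 mitochondrial genes in libraries 8 to 17 by genotype, 1 point per library, AML genotypes in red and Normal genotypes in grey. URE het Tet2 KO is highest in each panel, and URE het Tet2 het is lowest for mt-Nd3 at 189 CPM and for mt-Tn at 2.10 CPM.

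Over all 17 libraries no contrast of a compound with a single mutant called a member in edgeR. URE het Tet2 KO against Tet2 KO called 0 of 36 where 0.977% of all genes passed. Against URE het it called 0 of 36 where 0.356% passed. An unadjusted p under 0.05 was held by 5 and 7 members, beside 3015 and 3007 of all 19951 genes. DESeq2 called 1 member in each (6.09 and 5.09% of all genes), and limma voom 9 and 7 (18.3 and 17%). With title range in the fit edgeR called 2 and 1 (2.08 and 1.29% of all genes). In libraries 8 to 17 alone the same contrasts called 14 members (17.1% of all genes, 7.8% higher) and 13 members (18.2% of all genes, 8.76% higher), all higher in URE het Tet2 KO. Against Tet2 KO these were mt-Nd1 (0.76 ± 0.15, adjusted p = 0.0106), mt-Nd2, mt-Nd3, mt-Nd4l, mt-Nd5, mt-Nd6, mt-Co1 and 7 tRNA genes, led by mt-Tn (1.59 ± 0.24, adjusted p = 0.00257). Relative to mitochondrial mRNA 1 member, mt-Tn, passed in each of the 2 contrasts there (1.04 ± 0.27 and 0.90 ± 0.27), where 31.3 and 35.4% of all genes were called.

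URE het Tet2 KO against URE het Tet2 het called 0 of 36 over all libraries (4 unadjusted, 0.01% of all genes; DESeq2 called 1, with 1.79%) and 11 members within libraries 8 to 17 (23.6% of all genes), where it rests on 1 URE het Tet2 het library. In that range the spread of URE het Tet2 het was assumed to be that of the other genotypes, so a call there says that this library differed and does not show a difference between genotypes. URE het Tet2 het called 0 of 36 against Tet2 het and against URE het over all libraries in edgeR (0 unadjusted, 0.0% of all genes). Within libraries 8 to 17 the same single library was called for mt-Nd3 alone against Tet2 het (4.07% of all genes) and against URE het (7.27% of all genes). It was at 189 CPM there, against 540 and 611 CPM in Tet2 het and 522.9 and 567.9 CPM in URE het, and it is the library that stood apart from all others of its range for this gene. In the range 1 to 7 the URE het Tet2 het library was also the lowest for mt-Nd3, at 143 CPM against 153 to 241 CPM in the 6 others. Over all libraries 2344 of 19951 genes had an unadjusted p under 0.05 for URE het Tet2 KO against URE het Tet2 het. For URE het Tet2 het 2652 genes did against Tet2 het and 2634 against URE het. These contrasts share libraries with each other.

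No member passed between a single mutant and WT. Each of Tet2 KO, Tet2 het and URE het called 0 of 36 members against WT in edgeR, with 0 under an unadjusted p of 0.05, and DESeq2 and limma voom called 0 as well; edgeR called 0.0% of all genes in each. The median log2 fold change of the members was 0.21 for URE het, 0.35 for Tet2 het and 0.15 for Tet2 KO.

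Nuclear genes that serve the mitochondrial genome were taken from lists set beside the members, and are given against the 12.9% of all genes higher and 14% lower in libraries 8 to 17. Of the transcription machinery 6 of 11 genes were higher and 0 lower (median log2 fold change 0.39). Among them Polrmt, the mitochondrial RNA polymerase, averaged 6.81 ± 2.01 CPM in libraries 8 to 17 and 4.40 ± 1.27 CPM in libraries 1 to 7 (0.58 ± 0.19, adjusted p = 0.0324). Tfam, which packages mitochondrial DNA and starts its transcription, averaged 24.1 ± 2.80 CPM in libraries 8 to 17 and 18.0 ± 2.05 CPM in libraries 1 to 7 (0.41 ± 0.10, adjusted p = 0.00676). Of the RNA processing and decay genes 10 of 23 were higher and 0 lower (median 0.42). They included Slirp, an RNA-binding partner of Lrpprc (0.71 ± 0.09), Mtpap, the mitochondrial poly(A) polymerase (0.66 ± 0.10), and Supv3l1, the helicase of RNA decay (0.52 ± 0.12).

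Of the mitochondrial ribosomal proteins 14 of 26 were higher and 2 lower (median 0.45), with Mrpl13 at 1.01 ± 0.10 and Mrpl4 at -0.60 ± 0.11. Of the nuclear partners in the respiratory complexes 10 of 20 were higher and 2 lower (median 0.28). Cox5b, of complex IV, averaged 45.2 ± 8.15 CPM in libraries 8 to 17 and 24.9 ± 5.36 CPM in libraries 1 to 7 (0.82 ± 0.08, adjusted p = 1.35e-05), while Atp5b, the catalytic subunit of the ATP synthase, was lower, at -0.71 ± 0.12. Of the DNA maintenance genes 3 of 18 were higher and 1 lower, of the regulators of mitochondrial biogenesis 2 of 17 were higher and 1 lower, and of the stress and mitophagy genes 2 of 19 were higher and 5 lower. Of the last, Hspe1, a mitochondrial chaperonin, was higher by 0.86 ± 0.12 and the mitophagy receptors Optn and Bnip3l were lower, at -1.13 ± 0.17 and -0.69 ± 0.17. Of the nuclear copies of mitochondrial DNA 8 of 10 tested were higher and 0 lower, with Gm28438 at 1.56 ± 0.18 beside 1.53 ± 0.18 for mt-Nd3. Gm10925 did not pass (0.25 ± 0.10, adjusted p = 0.0839), unlike mt-Atp6, and Gm28439 was at 0.64 ± 0.12, above mt-Nd4.

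In AML against Normal, where 6.94% of all genes were higher and 4.02% lower, fewer of these genes passed. Of the transcription list 2 of 11 were higher, Mterf2 (1.03 ± 0.26, adjusted p = 0.0199) and Mterf1b (0.74 ± 0.22, adjusted p = 0.044), both of a family that binds mitochondrial DNA. Of the biogenesis regulators 4 of 17 were higher and 1 lower. Ppargc1b, a coactivator of mitochondrial genes, averaged 6.12 ± 1.45 CPM in AML libraries and 2.76 ± 0.516 CPM in Normal libraries (1.12 ± 0.20, adjusted p = 0.00356), and Gabpb1, a subunit of the factor NRF-2, averaged 25.3 ± 7.76 CPM in AML libraries and 42.4 ± 3.85 CPM in Normal libraries (adjusted p = 0.0129). Of the stress and mitophagy genes 3 of 19 were higher and 0 lower, with Bnip3 at 26.3 ± 24.8 CPM in AML libraries and 7.91 ± 1.38 CPM in Normal libraries and Pink1 at 14.8 ± 3.66 CPM in AML libraries and 8.78 ± 1.77 CPM in Normal libraries. Of the RNA processing list 1 of 23 was higher (Fastk), of the ribosomal proteins 1 of 26 was higher (Mrps35), of the respiratory partners 1 of 20 was lower (Cox5a), and of the DNA maintenance genes 0 of 18 passed in edgeR.

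Markers of other cell types were compared by disease label, where 6.94% of all genes were higher in AML and 4.02% lower. Of the late neutrophil markers 5 of 10 were lower in AML and 0 higher, with a summed level of 11741 to 39027 CPM in AML libraries and 26475 to 93693 CPM in Normal libraries. Of the erythroid markers 1 of 14 was lower, with a summed level of 65.1 to 177 CPM in AML libraries and 126 to 284 CPM in Normal libraries. Of the monocyte and dendritic markers 3 of 8 were lower and 0 higher, with a summed level of 209 to 1025 CPM (median 356) in AML libraries and 475 to 2063 CPM (median 751) in Normal libraries. Of the megakaryocyte markers 2 of 7 were lower and 0 higher, with a summed level of 1.81 to 36.7 CPM (median 2.95) in AML libraries and 17.3 to 37.3 CPM (median 27.4) in Normal libraries. Of the B and T cell markers 4 of 10 were lower, with a summed level of 18.8 to 98.1 CPM in AML libraries and 64.0 to 164 CPM in Normal libraries, and Cd3e was above 0 in 12 of the 17 libraries. Of the progenitor markers 2 of 13 were lower in AML and 0 higher, with a median log2 fold change of -0.43. The part of these differences in the mitochondrial levels was not tested.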

How the data were processed

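Bone marrow cells were sorted and polyadenylated RNA sequenced, per the labels' protocols. The deposited values are raw read counts per gene for 17 libraries, made by the authors with STAR on GRCm38, per the submitters' processing notes; the version, the counting tool, its strand setting and its treatment of reads with several matches are not given in the sources used here. Gene rows (47643 of 96004 features) were used, with symbols from GENCODE annotation of GRCm38.

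Genes were filtered with filterByExpr (minimum count 10, minimum total 15), leaving 19951, scaled by TMM and tested with edgeR 4.0.16 (quasi-likelihood, robust; Benjamini-Hochberg, 0.05). A second fit set library size to the sum of the 13 mitochondrial mRNA genes. Alternatives used limma 3.58.1 (voom) and DESeq2 1.42.0 in R 4.3.3. CPM is TMM-scaled. Scripts were tested on simulated data. Copies were found with BLAST 2.17.0. The text names both rRNAs, all mRNAs, tRNA genes averaging at least 1 CPM, and up to 4 called genes of each nuclear list by smallest p; mt-Ta, mt-Te, mt-Tg, mt-Ti and mt-Td fall outside that rule and were named after their values were seen. The SE of a log2 fold change is its size over the square root of F. The members and lists were chosen with earlier results of these data known. Depth was 21.1 to 38.3 M gene counts per library, and reads carry no molecular identifiers.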

Additional observations from a re-analysis of the deposited data

Results flagged for a closer look

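In 3 of 87 groups of libraries tested, 1 library stood apart from all others of its group; chance alone flags about 1 group in 20. In libraries 8 to 17, mt-Nd3 was at 189 CPM in URE het Tet2 het replicate 2 and at 514 to 858 CPM in the other 9 libraries. In libraries 1 to 7, mt-Nd6 was at 316 CPM in Tet2 het replicate 1 and at 184 to 215 CPM in the 6 others. In the same library mt-Tf, the phenylalanine tRNA gene, was at 2.58 CPM, against 0.916 to 1.57 CPM in the 6 others.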

How the results depend on the processing

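Later against earlier title numbers called 29 members, and 25 to 29 when 1 library was left out, but 0 in the 5 AML libraries alone, on either scale. AML against Normal called 0, but 3 within libraries 8 to 17 and 2 with title range in the fit, and relative to mitochondrial mRNA 1 and 1. URE het Tet2 KO against Tet2 KO called 0, but 1 with DESeq2, 9 with limma voom, 14 within libraries 8 to 17, 2 with title range in the fit and 0 to 3 with 1 library left out. Against URE het it called 0, but 1, 7, 13, 1 and 0 to 4 under the same settings. Against URE het Tet2 het it called 0, but 1 with DESeq2 and 11 within libraries 8 to 17. URE het Tet2 het called 1 member within libraries 8 to 17 against Tet2 het and 1 against URE het. The interaction called 0, but 1 with DESeq2 and 0 to 3 with 1 library left out. The counts of 3 and 4 came without URE het Tet2 KO replicate 1; those of 3 in the interaction came without a URE het Tet2 het library. Adding the listed nuclear copies to their mitochondrial genes left 29 called. Several of these copies held a nearly constant part of the count of their gene, such as Gm28437 at 98.4 to 101% of mt-Co3. For such genes the step could hardly move a fold change, so it does not check how reads were assigned. That step added nothing to mt-Ts1, mt-Tg or mt-Atp8, for which no copy was listed. The log2 ratio of mean mitochondrial shares, later over earlier, was 0.39 of gene counts and 0.59 per nuclear counts. The causes were not tested. The fits of the 5 AML libraries alone and the alternatives of the interaction were chosen after seeing the data. The comparison of URE het Tet2 KO with all other libraries 8 to 17 was not planned either. No paired analysis was possible because the labels give no number shared between groups. Low counts limit 11 tRNA genes, at 0 to 84 counts per library.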
